A study of Mus musculus with 4 samples.

Results

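The 10 genes described here encode proteins of the elastic fibre, and they were chosen by name from the 24063 gene symbols in the tables. They are Eln, the fibrillins Fbn1 and Fbn2, the fibulins Fbln1, Fbln2 and Efemp2, the microfibril-associated proteins Mfap2, Mfap4 and Mfap5, and Emilin1. RNA of lung endothelial cells (ECs) was sequenced from C57BL6J mice aged 8 weeks, either 7 days after left pneumonectomy (PNX) or after a sham operation that opened the thorax without removing a lung. Each group had 2 libraries, and every library pooled the cells of a pair of mice. The cells had been selected with magnetic beads that carry an antibody to CD31, so a library holds the cells that this selection kept and not the whole lung. The names sham ECs and post-PNX ECs below stand for these selected cells, of whatever type. The mice carried no engineered allele, and no drug was compared. The authors deposited reads counted per RefSeq transcript of mm10, and where a symbol had several transcripts, the one with the largest summed count stood for the gene.

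An elastic fibre has a core of crosslinked elastin on a scaffold of fibrillin microfibrils. Tropoelastin, the product of Eln, is secreted as a soluble monomer, is brought to the microfibrils by fibulins and is joined into an insoluble polymer by lysyl oxidases. In the lung these fibres run through alveolar walls, airways and the walls of the arteries, where they give the tissue its recoil, and most of them are laid down while alveoli form.

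The totals over the chosen transcripts lay between 41367438 and 50952879 counts, so that 3 counts, taken as the floor, correspond to between 0.0589 and 0.0725 CPM (counts relative to the library total), which covers counting error only. All 12 endothelial marker genes were detected, Pecam1 (CD31) with means of 90946 and 90400 normalized counts in sham and post-PNX ECs. Markers of other cells were present as well. Sftpc, the surfactant gene of alveolar type 2 cells, reached 171015 normalized counts in sham ECs and 111027 after PNX. The series describes the mice as male, but 44 genes of chromosome Y had 0 counts over the 4 libraries and Xist had between 29890 and 36875 counts. This held for every library, so that no result could be recomputed without the libraries concerned.

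Promoter windows from RefSeq (GRCm38.p6) were examined for 6 of the 10 genes, namely Fbn1, Fbln1, Fbln2, Mfap2, Efemp2 and Emilin1. Windows of Eln, Fbn2, Mfap4 and Mfap5 were not part of this set. Those of Fbn1, Efemp2, Fbln1 and Mfap2 are printed, since these genes had a window that lay wholly or mostly before the annotated gene. The first 3 of them were higher after PNX and Mfap2 was not. The windows of Fbln2 and Emilin1 lie inside the gene. Each printed sequence is the part of the 250 bases before a transcription start that lies outside the annotated gene, written 5′ to 3′ on the strand of the gene. Capitals mark matches on either strand to GGAATG, the core bound by the TEAD partners of YAP1, or to GGGCGG, the GC box.
Fbn1, chr2:125506486-125506688, minus strand: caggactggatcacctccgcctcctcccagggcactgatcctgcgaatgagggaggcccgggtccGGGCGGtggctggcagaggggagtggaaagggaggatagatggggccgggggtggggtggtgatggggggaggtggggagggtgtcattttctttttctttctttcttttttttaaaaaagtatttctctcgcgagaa
Efemp2, chr19:5473696-5473945, plus strand: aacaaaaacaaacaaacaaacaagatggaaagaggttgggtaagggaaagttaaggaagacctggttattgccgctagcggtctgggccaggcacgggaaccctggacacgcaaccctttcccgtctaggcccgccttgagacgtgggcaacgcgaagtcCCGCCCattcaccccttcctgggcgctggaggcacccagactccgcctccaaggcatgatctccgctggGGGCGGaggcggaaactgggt
Fbln1, chr15:85205699-85205948, plus strand: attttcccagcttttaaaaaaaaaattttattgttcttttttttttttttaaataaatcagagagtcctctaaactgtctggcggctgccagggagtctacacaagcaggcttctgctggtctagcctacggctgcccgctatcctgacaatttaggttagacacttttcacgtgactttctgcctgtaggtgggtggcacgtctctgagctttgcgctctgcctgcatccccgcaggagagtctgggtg
Mfap2, chr4:141010174-141010423, plus strand: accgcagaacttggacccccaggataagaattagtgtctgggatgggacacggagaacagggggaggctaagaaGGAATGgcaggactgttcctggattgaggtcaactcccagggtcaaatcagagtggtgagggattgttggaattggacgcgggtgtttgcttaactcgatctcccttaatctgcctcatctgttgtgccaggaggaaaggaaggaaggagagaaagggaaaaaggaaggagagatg
The letters GGAATG occurred in 1 of the 10 windows of these 6 genes, 176 bases before the upstream start of Mfap2, against 12.6% of all 32851 promoter windows. GGGCGG or its complement occurred in 7 of the 10 windows, against 32.7% of all windows, and in at least 1 window of 5 of the 6 genes. The windows are not separate, since those of Efemp2 from 5474440 and from 5474485 overlap and hold the same 5 matches. No match to GGGCGG overlapped a GGAATG match. The AP-1 motif TGANTCA and the TATA box TATAAA, searched on both strands, were found in 0 of the 10 windows and in 6.75% and 12.4% of all windows.

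The post-PNX libraries held more RNA of 9 of the 10 elastic fibre genes than the sham libraries. A gene was called when its log2 fold change lay beyond 1 with an adjusted p under 0.01 in edgeR's quasi-likelihood test over 16208 genes. By this rule 6 of the 10 genes were called higher (Eln, Fbn1, Fbn2, Fbln2, Mfap4 and Mfap5), where 5.90% of all genes tested were, and 0 were called lower, where 1.66% of all genes were (7.56% in either direction). With the adjusted p alone, 9 were higher and Mfap2 was lower, against 29.3% and 27.8% of all genes. When counts were scaled to the 12 endothelial markers, Mfap2 passed in the other direction and Efemp2 was called as well. Under that scaling 8965 of the 16208 genes tested were higher by the adjusted p alone, and 1257 were called higher and 95 lower. The median log2 fold change of the 10 genes was 1.43, and that of all genes tested was 0.00. All 10 passed the filter on low counts. In every one of them the normalized counts of the groups did not overlap, which was also so for 81.2% of all genes tested. In such bulk samples more cells of a type and more RNA per cell cannot be told apart. Nor can it be read which type of cell held the RNA.

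**Figure D1:**
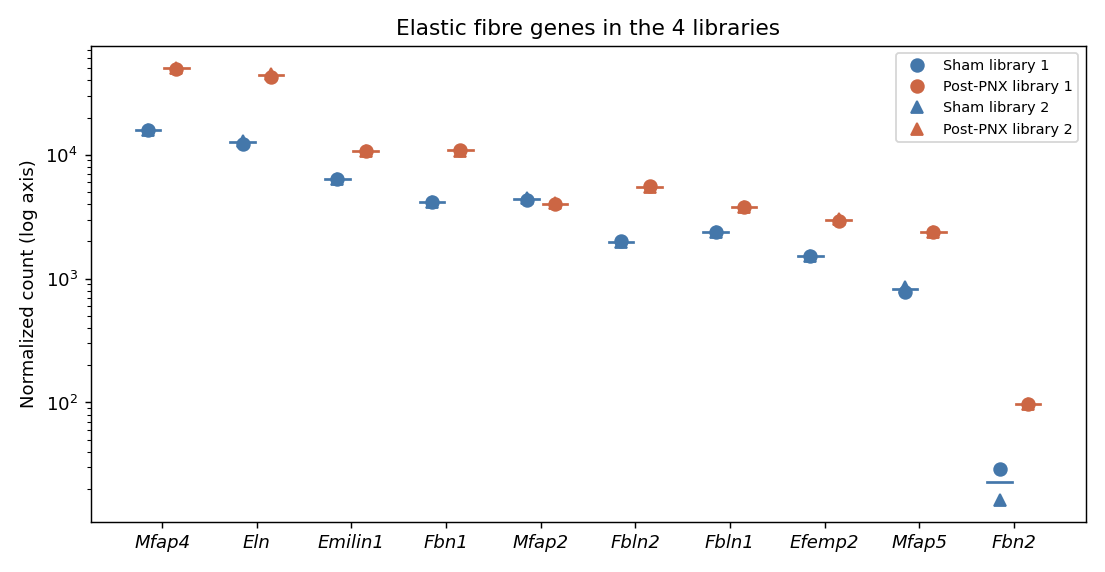
Normalized counts (log axis) of the 10 elastic fibre genes in each library, with circles and triangles for libraries 1 and 2 of a group and a line at the group mean (n = 2). The post-PNX libraries lie above the sham libraries for every gene but Mfap2, whose post-PNX libraries (4002 and 4082) lie below the sham libraries (4340 and 4454), an order that turns under scaling to endothelial markers.

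Eln (mm10, chromosome 5 from 134702595 to 134747368, minus strand) encodes tropoelastin, the monomer of the fibre core. Sham libraries had 12295 and 12852 normalized counts of Eln, and post-PNX libraries had 42862 and 44542. The post-PNX values lay far above the sham values. The means were 12574 ± 394 (SD, n = 2) and 43702 ± 1188 (SD, n = 2), a log2 fold change of 1.80 (edgeR, adjusted p = 4.7e-61, standard error 0.020). By log2 fold change Eln ranked 441 of the 16208 genes tested. In the annotation, at most 267 exon bases of Eln are shared with Gm30003 on the other strand. The counting program is not given in the sources used here, so reads of these bases cannot be assigned to a strand.

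The fibrillins form the backbone of the microfibril. Fbn1 (chromosome 2 from 125300594 to 125506485, minus strand), the main fibrillin of adult tissue, had 4126 and 4191 normalized counts in sham and 11009 and 10830 in post-PNX libraries. The log2 fold change was 1.39 (edgeR, adjusted p = 9.9e-51, standard error 0.024). Fbn1 shares at most 2442 exon bases with Gm9913 on the other strand. Fbn2, which is used mainly in development, had few reads, with 32 and 16 raw counts in sham and 99 and 87 after PNX. Its log2 fold change was 2.07 (edgeR, adjusted p = 3.5e-12, standard error 0.23), and without single sham libraries it was 1.74 and 2.56. The sham libraries of Fbn2 differed from each other more than those of any other member, with an SD of 0.58 on the log2 scale against at most 0.095 in the other members. Per length, the deposited TPM, an abundance corrected for transcript length, of Fbn1 was 14.5 and 14.7 in sham and 37.7 and 37.0 in post-PNX libraries, while Fbn2 had 0.096 and 0.054 against 0.31 and 0.31. The TPM level of Fbn1 was therefore 151 and 272 times that of Fbn2 in the sham libraries and 120 and 118 times after PNX.

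Among the fibulins, which link tropoelastin to microfibrils or bind at the fibre surface, the changes were unequal. Fbln2 (chromosome 6 from 91212460 to 91272540) went from 2006 and 1974 normalized counts in sham to 5553 and 5519 after PNX, a log2 fold change of 1.48 (edgeR, adjusted p = 1.2e-46, standard error 0.031). Efemp2 (chromosome 19 from 5473946 to 5482520), which encodes fibulin-4 and brings lysyl oxidase to tropoelastin, had 1520 and 1526 in sham and 2936 and 3038 after PNX. The log2 fold change of Efemp2 was 0.97 (edgeR, adjusted p = 8.1e-33, standard error 0.036), just short of 1. Fbln1 (chromosome 15 from 85205949 to 85286294) had 2377 and 2370 in sham and 3799 and 3818 after PNX, a log2 fold change of 0.68 (edgeR, adjusted p = 3.2e-28, standard error 0.032). The TPM ratio of Fbln2 to Fbln1 was 0.63 and 0.62 in sham ECs against 1.10 and 1.08 in post-PNX ECs for the chosen transcripts. With TPM summed over transcripts Fbln2 lay above Fbln1 in both groups, with means of 31.3 against 24.5 in sham and 85.1 against 38.4 after PNX. The Fbln2 transcripts had nearly equal counts, so this sum may count the same reads more than once, and it does not settle the order. Efemp2 shares at most 173 exon bases with Mus81 on the other strand, and Mus81 had a log2 fold change of -0.09 (edgeR adjusted p = 0.169).

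The microfibril-associated genes held both the highest levels and the only member that was not higher. Mfap4 (chromosome 11 from 61485431 to 61488708), a fibrinogen-domain protein that binds elastin and fibrillin, had 15983 and 15914 normalized counts in sham and 49255 and 50628 after PNX, a log2 fold change of 1.65 (edgeR, adjusted p = 4.2e-61, standard error 0.018). Mfap5 (chromosome 6 from 122513584 to 122529290), also called MAGP-2, had 786 and 863 in sham and 2368 and 2388 after PNX. Its log2 fold change was 1.53 (edgeR, adjusted p = 1.3e-38, standard error 0.045). Mfap2 (chromosome 4 from 141010424 to 141015976), also called MAGP-1 and closely related to Mfap5, had 4340 and 4454 in sham and 4002 and 4082 after PNX. The log2 fold change of Mfap2 was -0.12 (edgeR, adjusted p = 0.00016, standard error 0.028), which is 0.919-fold. Scaling to the endothelial markers turned it to 0.10 (edgeR adjusted p = 0.00162), and without PNX replicate 1 it was -0.10. That scaling moved the median of all genes tested by 0.226, and relative to this shift Mfap2 had -0.121. In TPM, Mfap2 stood 7.21 and 6.73 times above Mfap5 in the sham libraries and 2.21 and 2.23 times after PNX.

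Emilin1 (chromosome 5 from 30913387 to 30921279) encodes a glycoprotein at the interface of elastin and microfibrils, which also binds integrins and restrains the maturation of TGF-beta. Sham libraries had 6343 and 6341 normalized counts of Emilin1, and post-PNX libraries had 10655 and 10830. The post-PNX values were 1.69-fold higher. The log2 fold change was 0.76 (edgeR, adjusted p = 4.6e-38, standard error 0.023).

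**Figure D2:**
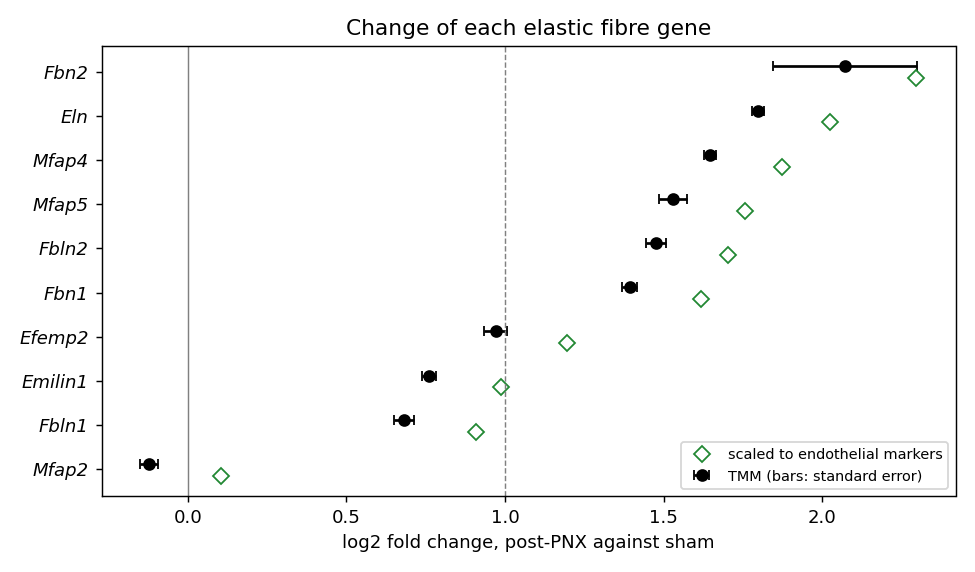
The log2 fold change of post-PNX against sham ECs (n = 2 libraries each) for the 10 genes, with black points and standard errors from the edgeR test on TMM-normalized counts and open diamonds after scaling to the 12 endothelial markers. The values run from -0.12 (Mfap2) to 2.07 (Fbn2), the dashed line marks the threshold of 1, and the diamonds lie 0.23 to the right, which puts Mfap2 above 0 and Efemp2 above 1.

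Transcripts of the same gene were not resolved by these counts. Mfap2, Fbln2 and Efemp2 each had 2 RefSeq transcripts in the tables and the other members 1. Those of Mfap2 had 4791 and 4784 counts in the first sham library and 4073 and 4074 in the first post-PNX library. The counts of such a pair were nearly equal in each library, and no change between transcripts of a gene could be read from them.

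Levels between genes were compared in TPM of the chosen transcript. In sham ECs the order was Mfap4 (365 ± 1.42 TPM, SD, n = 2), Mfap2 (141 ± 2.46), Eln (115 ± 3.52), Emilin1 (63.5 ± 0.071), Efemp2 (29.4 ± 0.056), Fbln1 (24.5 ± 0.072), Mfap5 (20.3 ± 1.32), Fbln2 (15.4 ± 0.19), Fbn1 (14.6 ± 0.15) and Fbn2 (0.075 ± 0.030). No neighbours in this order overlapped between their libraries. After PNX the order was Mfap4 (1118 ± 21.4 TPM, SD, n = 2), Eln (391 ± 10.5), Mfap2 (127 ± 1.74), Emilin1 (105 ± 1.18), Mfap5 (57.1 ± 0.31), Efemp2 (56.3 ± 1.35), Fbln2 (41.9 ± 0.20), Fbln1 (38.4 ± 0.13), Fbn1 (37.4 ± 0.44) and Fbn2 (0.31 ± 0.00089). Of these neighbours only Mfap5 and Efemp2 overlapped. Eln lay below Mfap2 in sham ECs and above it after PNX, also with TPM summed over transcripts (285.6 and 256.7 for Mfap2). With summed TPM the places of Fbln2, Fbln1 and Mfap5 changed in the sham order. After PNX those of Efemp2, Emilin1, Fbln2 and Mfap5 changed. The paired transcripts had nearly equal counts, so the sums may count the same reads more than once.

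The make-up of the elastic fibre transcripts shifted as well. For the chosen transcripts, the summed TPM of the 10 genes was 786 and 794 in sham ECs against 1947 and 1998 in post-PNX ECs. Of this sum Mfap4 held 46.7% and 45.9% in sham and 56.6% and 56.7% after PNX, and Eln held 14.4% and 14.8% against 19.7% and 19.96%. The share of Mfap2 was 17.7% and 18.0% in sham and 6.45% and 6.41% after PNX, and that of Emilin1 was 8.09% and 7.99% against 5.35% and 5.30%. Fbn1 kept nearly the same share, with 1.84% and 1.85% in sham and 1.93% and 1.85% after PNX. The TPM ratio of Eln to Mfap2 was 0.81 and 0.82 in sham ECs against 3.06 and 3.12 in post-PNX ECs. The ratio of Eln to Fbn1 was 7.80 and 8.03 against 10.2 and 10.8.

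**Figure D3:**
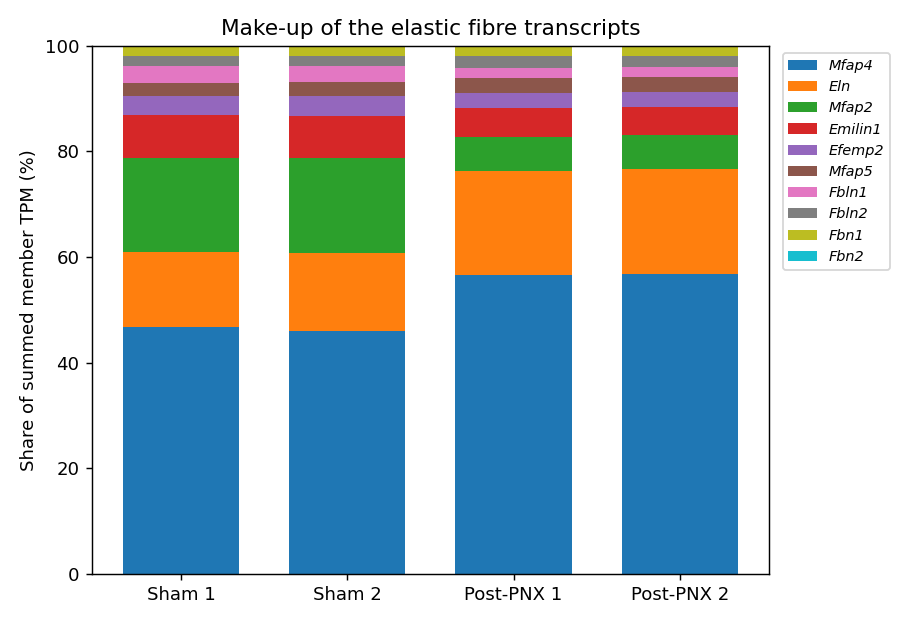
Share of each gene in the summed TPM of the 10 elastic fibre genes (percent, stacked to 100), 1 bar per library. The bars of a group are alike, and between groups the share of Mfap2 goes from 17.7% and 18.0% in sham to 6.45% and 6.41% after PNX while those of Mfap4 and Eln are larger after PNX.

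The genes with the profile most like that of Eln were found by the Euclidean distance of log2 normalized counts, centred on the mean of the 4 libraries. The nearest of all genes tested were Col5a1 (distance 0.036), which encodes a chain of collagen V, Polq (0.043), a DNA polymerase, Lmnb1 (0.043), lamin B1, Adamts2 (0.045), a procollagen protease, and Smpd3 (0.066), a sphingomyelinase. Of the other members Mfap4 was nearest to Eln (0.16), followed by Mfap5 (0.27), Fbln2 (0.33) and Fbn1 (0.41), and Mfap2 was farthest (1.92). With 4 libraries in 2 groups this measure mostly reflects the size of the change.

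Markers of other cell types moved between the groups too, and their part in the values above was not tested. Fibroblasts, smooth muscle cells and mesothelial cells are known sources of elastic fibre proteins. The summed CPM of the 12 fibroblast markers was 2724 and 2733 in sham and 5738 and 5749 after PNX. With an adjusted p under 0.01, 9 of them were higher and 2 lower. By this rule 29.3% of all genes tested were higher and 27.8% lower, which is the background for each marker list below. Within the fibroblast list the collagens Col1a1, Col1a2 and Col3a1 had log2 fold changes of 2.34, 2.08 and 2.27. Lum, Dcn, Dpt, Pi16, Clec3b and Meox2 had 4.26, 2.30, 0.71, 0.63, 0.50 and 0.43. Tcf21, a transcription factor of lung fibroblasts, had 0.02 (edgeR adjusted p = 0.677), and Inmt had -1.04. Pdgfra, the receptor that defines alveolar fibroblasts, had 14405 and 12287 normalized counts in sham and post-PNX ECs (log2 fold change -0.23, edgeR adjusted p = 2.4e-15, and 0.889 under scaling to endothelial markers). The collagens, Tcf21 and Pdgfra are compared here because of their different roles, and Tcf21 and Pdgfra were chosen after their values were seen. The remaining markers are given to complete the list. The 12 smooth muscle and pericyte markers summed to 558 and 564 CPM in sham and 761 and 755 after PNX, with 10 higher and 0 lower. The 8 mesothelial markers summed to 261 and 264 against 544 and 550, with 8 higher. None of these markers was at 0 in all libraries. Endothelial markers summed to 10988 and 11109 CPM in sham and 9458 and 9480 after PNX, with 1 higher and 10 lower under TMM.

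The remaining lists moved in different directions. The 8 proliferation markers, Mki67 and Top2a among them, summed to 92.4 and 92.0 CPM in sham and 650 and 638 after PNX. All were called higher, where 5.90% of all genes tested were. All 8 alveolar epithelial markers were lower (Cdh1 with an edgeR adjusted p of 0.497 under scaling to endothelial markers), with sums of 7475 and 7519 against 4936 and 4917. The macrophage markers, of which 7 were measured, summed to 3576 and 3562 against 4654 and 4627 with 7 higher. Lyz2, with means of 144686 and 166745 normalized counts in sham and post-PNX ECs, made up most of this sum. Its log2 fold change was 0.20. C1qa, C1qb and C1qc, named after their values were seen, had 2.82, 2.98 and 2.96, and Cd68, Mrc1 and Csf1r had 0.83, 0.70 and 0.68. The 5 pan-leukocyte markers summed to 816 and 816 against 864 and 873. Of these 3 were higher and 1, Coro1a, was lower, which turned higher under scaling to endothelial markers.

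Counted against these lists, the members differed in their ratios. Per 1000 counts of the endothelial markers, Eln had 24.2 and 25.1 counts in sham and 98.6 and 102 after PNX, and Mfap2 had 8.56 and 8.69 against 9.20 and 9.34. Per 1000 counts of the fibroblast markers, Eln had 97.8 and 102 in sham and 162 and 168 after PNX, which is a ratio of the means of 1.66. On the same scale Fbn2, Mfap4, Mfap5, Fbln2 and Fbn1 had ratios of 2.04, 1.49, 1.37, 1.33 and 1.25. Those of Efemp2, Emilin1, Fbln1 and Mfap2 were 0.93, 0.81, 0.76 and 0.44. These ratios rested on Inmt, which held 44.1% of the fibroblast marker sum in sham ECs and was lower after PNX. Without Inmt, an alternative chosen after seeing the data, the rest of the list was 3.38-fold higher after PNX, the ratio of Eln was 1.03 and that of Fbn2 was 1.27, and those of the other 8 members were below 1, from 0.27 for Mfap2 to 0.93 for Mfap4. Mfap2 had 34.5 and 35.3 counts per 1000 fibroblast marker counts in sham ECs against 15.2 and 15.4 after PNX. Relative to the smooth muscle and pericyte markers every member but Mfap2 (0.68) had a ratio above 1, from 1.19 for Fbln1 to 3.18 for Fbn2. These ratios are descriptions and were not tested.

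**Figure D4:**
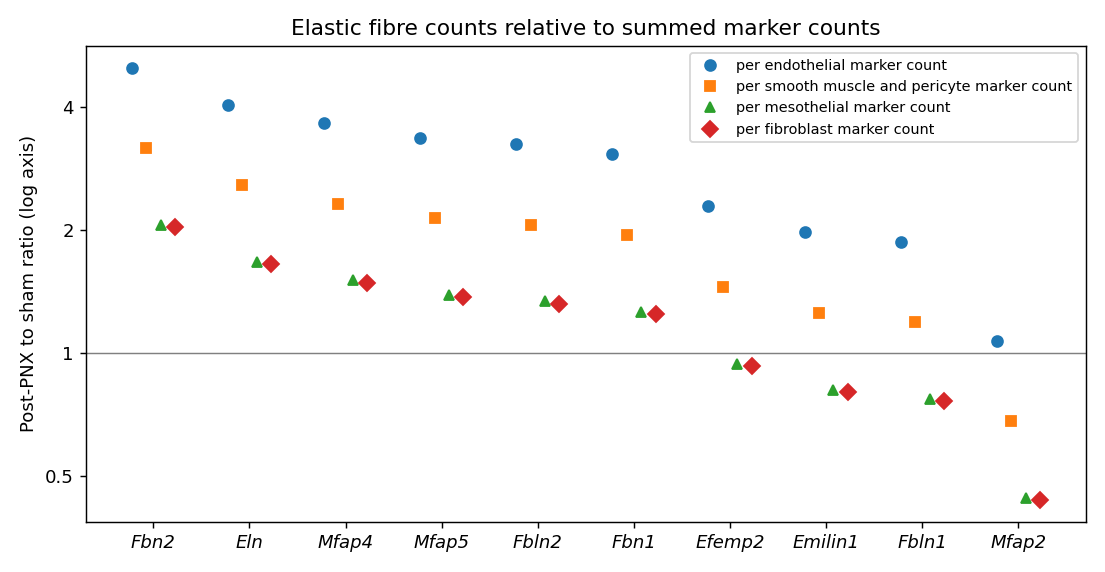
Ratio of post-PNX to sham ECs (log axis, means of n = 2 libraries) of each member's count divided by the summed counts of 4 marker lists. Per endothelial marker count the ratios run from 1.08 (Mfap2) to 5.01 (Fbn2), and per fibroblast marker count from 0.44 (Mfap2) to 2.04 (Fbn2), with Efemp2, Emilin1, Fbln1 and Mfap2 below 1 (all members but Eln and Fbn2 without the marker Inmt).

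Other genes of elastic fibre assembly and turnover were taken from lists of 54 symbols, of which 51 were tested. Of these, 16 were called higher (12 by glmTreat) and 0 lower. With the adjusted p alone 34 were higher and 6 lower (1 under scaling to endothelial markers). Their median log2 fold change was 0.33. Of all genes tested, 5.90% were called higher and 1.66% lower, and 29.3% were higher and 27.8% lower with the adjusted p alone. By glmTreat 604 of the 16208 genes were called higher and 39 lower. These values are the background for each list below. The other fibulins and the emilin family had a median of 0.02. Emilin2, a relative of Emilin1, rose from 1649 to 5459 normalized counts (log2 fold change 1.73, edgeR adjusted p = 3.8e-49). Fbln5, a fibulin required for elastic fibres, had a log2 fold change of 0.58 and was chosen after its value was seen. Hmcn1, hemicentin 1, had -0.21, which turned to 0.02 under scaling to endothelial markers, and Mmrn1, multimerin 1, had 0.02 (edgeR adjusted p = 0.47). Of the 7 genes of this list tested, 2 were called higher and 0 lower, and 1 was called higher without Sham replicate 2, without PNX replicate 1, with a mean of 50 counts required, by the DESeq2 Wald test and by glmTreat.

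The latent TGF-beta binding proteins, which attach latent TGF-beta to microfibrils, had 1 of 4 called higher and 0 by glmTreat, which tests against the fold threshold. The gene called was Ltbp2, which went from 3782 to 7746 normalized counts (log2 fold change 1.03), while Ltbp4, the most abundant, had 35391 and 35766 (log2 fold change 0.02, edgeR adjusted p = 0.457). Of the 7 fibrillin-binding ADAMTS and ADAMTS-like genes 2 were called higher. Adamtsl2 rose with a log2 fold change of 1.31. Adamtsl4 and Adamts10 had -0.32 and -0.24 (edgeR adjusted p = 3.8e-12 and 8.4e-16), and scaling to endothelial markers moved these to -0.10 and -0.01.

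Crosslinking and secretion genes had 3 of 8 called higher and 0 called lower, and 7 higher and 1 lower with the adjusted p alone. Loxl2, a lysyl oxidase-like enzyme, rose from 1845 to 4660 normalized counts (log2 fold change 1.34, edgeR adjusted p = 5.7e-43). Loxl1, the family member bound to elastin assembly, rose with 1.21, while Lox itself had 3672 and 4097 normalized counts and a log2 fold change of 0.16. Both were chosen after their values were seen. Furin, which processes profibrillin, had 0.18. Atp7a, the copper transporter that supplies lysyl oxidases, had -0.18, which turned to 0.05 under scaling to endothelial markers.

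Genes for proteases that cut elastin were higher in 7 of 9 tested, 5 of them called, with a median log2 fold change of 1.47. Mmp12, macrophage elastase, had 314 and 323 normalized counts in sham libraries and 5093 and 4943 in post-PNX libraries. It had a log2 fold change of 3.98 (edgeR adjusted p = 1.0e-60). Ctss, cathepsin S, rose from 15193 to 29231 (log2 fold change 0.94), and Mmp7 had 0 counts in every library. Of 7 protease inhibitors 2 were called higher. Timp1, an inhibitor of metalloproteinases, rose from 209 to 2095 normalized counts (log2 fold change 3.32, edgeR adjusted p = 1.0e-48), and Timp3, the most abundant, had 61401 and 63664 (log2 fold change 0.05). The integrin subunits had 1 of 9 called higher, which was Itgb8 (21.9 to 81.4 normalized counts, log2 fold change 1.87). Itgb1 had 0.33 and Itga4 -0.46.

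**Figure D5:**
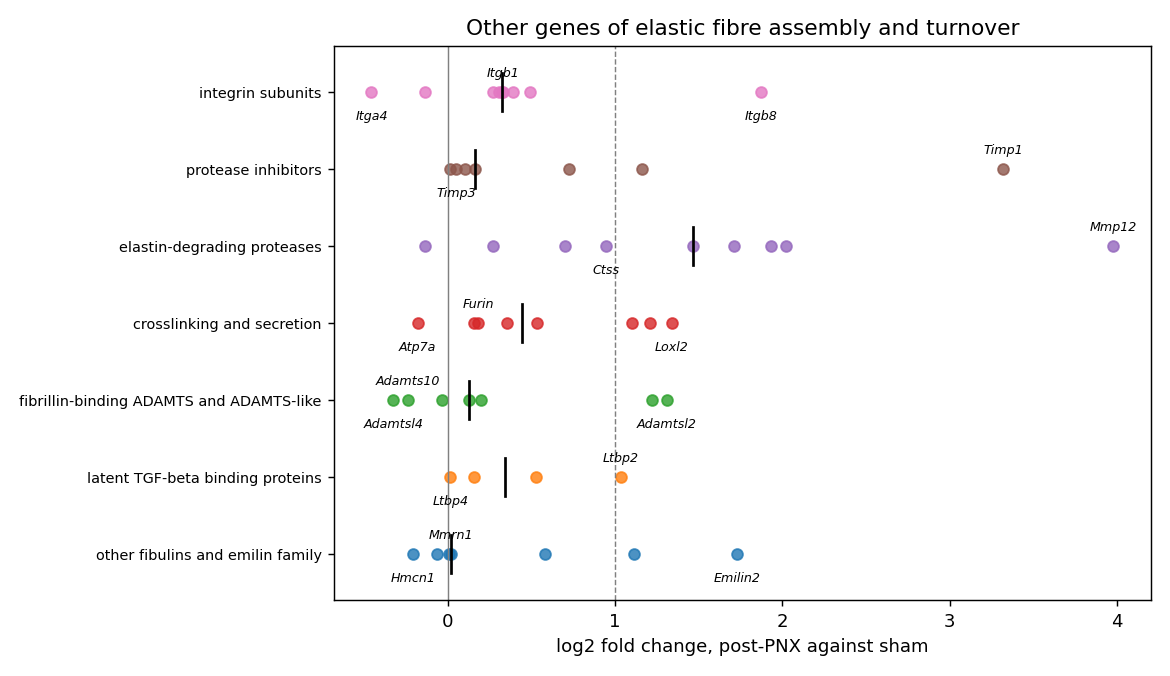
The log2 fold change of post-PNX against sham ECs (n = 2 libraries each) for the tested genes of the 7 lists, 1 point per gene, with a black line at the median of each list, the dashed line at 1 and names for the genes chosen by rule. The proteases have the highest median (1.47), Mmp12 (3.98) and Timp1 (3.32) lie farthest to the right, and points between -0.23 and 0, among them Hmcn1 and Atp7a, pass above 0 under scaling to endothelial markers.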

How the data were processed

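Polyadenylated RNA of CD31-selected mouse lung ECs was sequenced as paired ends from TruSeq stranded libraries. The submitters' processing notes name STAR and mm10, and the counting program is not given in the sources used here. For each of 33068 RefSeq transcripts the authors deposited whole-number counts without normalization, FPKM values, which served only to derive transcript lengths, and TPM values, which were used for levels between genes. The paired transcripts of Mfap2, Fbln2 and Efemp2 had nearly equal counts.

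The transcript with the most counts stood for each symbol. Counts were filtered with filterByExpr, which left 16208 genes, normalized by TMM (factors from 0.9985 to 1.003) and tested with edgeR 4.0.16 (quasi-likelihood F test, R 4.3.3) without covariates, with Benjamini-Hochberg adjustment over all genes tested. Normalized counts are scaled to the mean library size, and log2 normalized counts for the spread between libraries used a prior count of 0.125. A standard error is the log2 fold change divided by the square root of F. The steps were tested on simulated data. With 2 pooled libraries per group, p-values measure the spread between these pools only.

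Other settings tried were scaling by DESeq2 size factors, by raw library totals or by 12 endothelial markers, dropping the filter or requiring a mean count of 50, DESeq2 1.42.0 (Wald), a replicate block, counts or TPM summed over transcripts, glmTreat, and each library left out in turn. The genes, lists and tests were chosen with earlier results of these data known. Named by rule were the 10 genes, the largest rise, largest fall and highest mean count of each related list, and up to 4 markers of each marker list by mean count. Gene positions are those of RefSeq for GRCm38.p6, the assembly of mm10, and overlaps with other genes come from GENCODE M21. Hmcn2 and Adgre1 were not analysed here, and Emilin3 and Mmp7 did not pass the filter.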

Additional observations from a re-analysis of the deposited data

How the results depend on the processing

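Of the 10 genes, 9 kept their direction and stayed past the adjusted p under the 12 alternatives that gave a fold change and p for each gene (glmTreat gave only calls). The exception was Mfap2, with a log2 fold change of 0.1048 under scaling to endothelial markers, where 0 of the 10 genes were lower, and -0.1049 without PNX replicate 1, where its adjusted p was 0.0109 and again 0 were lower. Leaving out each library in turn, the log2 fold change of Mfap2 ranged from -0.1403 to -0.1031 and the number of lower members from 0 to 1. Under the endothelial scaling the median of the 10 genes was 1.6606, that of all genes was 0.2271, and 1 related gene was lower. The calls over all genes were then 1257 higher and 95 lower, so that higher calls took a larger part than with TMM (957 and 269). The other tools gave 825 and 188 (DESeq2 Wald test) and 604 and 39 (glmTreat), and the filter at a mean of 50 counts gave 719 and 160. The 6 called members were 7 under the endothelial scaling, which adds Efemp2, and 6 under each other alternative, glmTreat included.

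With TPM summed over transcripts, the means in sham and post-PNX ECs were 31.3 and 85.1 for Fbln2, 285.6 and 256.7 for Mfap2, and 63.2 and 121 for Efemp2. On this scale Efemp2 lay above Emilin1 after PNX, and Fbln2 lay above Fbln1 and Mfap5 in both groups. The transcripts of each pair had nearly equal counts, so these sums may count the same reads more than once. Whether the order of Fbln2 and Fbln1 was exchanged is therefore not settled by the sums.

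The replicate numbers come from different mice, and the correlation of same-numbered deviations over 16208 genes was 0.0304, so the numbers were not taken to pair the libraries. With the replicate block, 6 members were called higher and 957 genes in all, and the log2 fold change of Eln was 1.7974. Depth limits Fbn2, with log2 fold changes of 1.74 to 2.5646 across the fits without 1 library.

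The ratios to marker counts were recomputed without each marker in turn, which was chosen after seeing the data. Without 1 fibroblast marker the ratio ranged from 1.03 to 2.12 for Eln, and Fbn1, Fbln2, Mfap4, Mfap5, Efemp2 and Emilin1 lay on either side of 1. Efemp2 and Emilin1 did so for the mesothelial markers, and no member did for the endothelial or the smooth muscle and pericyte markers.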
